A study of Mus musculus with 6 samples.

Results

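The genes of MHC class II antigen presentation were described in eWAT, the epididymal white adipose tissue, a visceral fat depot of male mice. The 10 members were taken by gene name from the 54532 genes of the deposited count table: H2-Aa, H2-Ab1, H2-Eb1, Cd74, Ciita, H2-DMa, H2-DMb1, H2-DMb2, H2-Oa and H2-Ob. All 10 were listed, and 9 of them were among the 16003 genes with enough counts for a test. The exception, H2-Oa, is given by its counts. RNA-seq was made from the eWAT of 3 cachectic mice and 3 control mice of strain C57BL/6. According to the methods the animals were male and, by the range of weeks given there, young adults. Cachexia was induced by inoculating LLC cells, a Lewis lung carcinoma line from the same strain, under the skin, and it was called from a marked loss of body weight. Tissue was taken on day 21. The controls carried no tumor, and no genetic change is named for either group. A whole fat pad holds adipocytes, vessels, stromal cells and leukocytes together, and the model is a single transplanted tumor line.

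MHC class II molecules display peptides from taken-up proteins to CD4 T cells. They are made by dendritic cells, B cells and macrophages, the professional antigen-presenting cells, and stromal cells or adipocytes can be induced to make them by interferon gamma. An alpha and a beta chain assemble in the endoplasmic reticulum with the invariant chain (Cd74), which fills the groove and guides the complex to endosomes. There proteases cut the invariant chain down to a short fragment, H2-DM exchanges this fragment for a peptide, and H2-DO restrains H2-DM. Transcription of class II and its accessory genes depends largely on CIITA, a coactivator that is recruited by factors bound at conserved promoter boxes.

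Class II expression was lower in cachectic eWAT across the pathway. Of the 9 tested members, 8 were downregulated and none was upregulated. The threshold was 0.05 for the Benjamini-Hochberg adjusted p of a quasi-likelihood test in edgeR, adjusted over all tested genes. Over all tested genes the downregulated share was 8.63% and the upregulated share 9%. The 9 members had a median log2 fold change of -1.76, against 0 over all tested genes, and ranged from -1.87 to -1.46. These values correspond to levels between 2.75-fold and 3.64-fold lower. The cachectic mice lay below the control mice without overlap in all 9 tested members, a pattern that 20.1% of all tested genes showed. The 8 calls depended on the mice included. They numbered 5 without control replicate 1, 4 without control replicate 2, 2 without control replicate 3 and 3 without cachexia replicate 2, and the 2 calls left in every one of these fits were H2-DMa and H2-DMb1. Downregulated calls over all tested genes also fell, from 1381 of 16003 with all mice. In the same order of fits they were 1086 of 16370, 712 of 16576, 446 of 16502 and 930 of 16574. In bulk tissue, fewer cells of a type and less RNA per cell cannot be told apart.

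**Figure D1:**
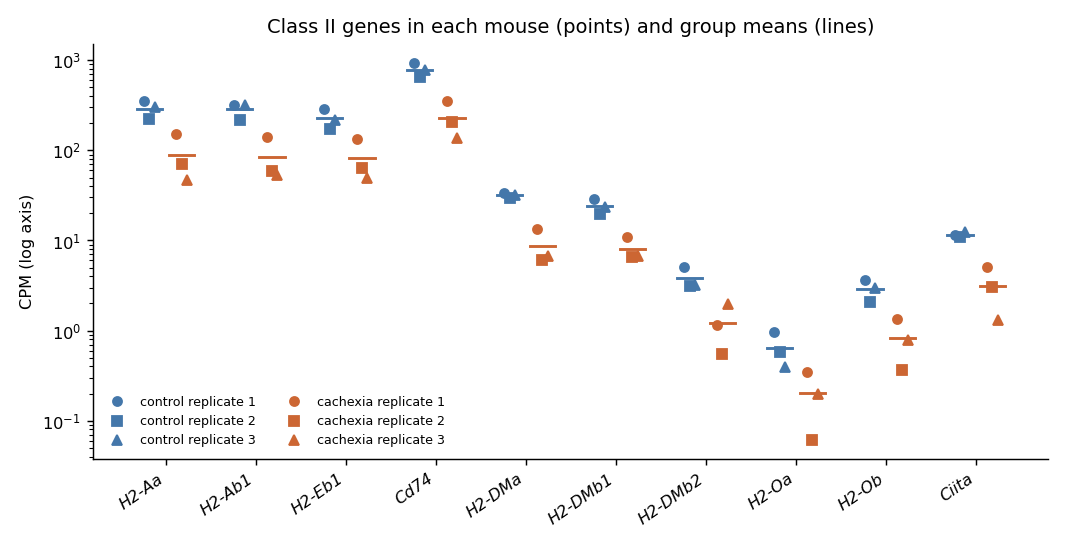
CPM of each of the 10 class II genes on a log axis, with 1 point per mouse (blue control, orange cachexia, shapes for replicates) and a line at each group mean. In every gene the 3 cachectic mice sit below the 3 control mice, and Cd74 is the most abundant on this scale at 647.2 to 936.7 CPM in controls.

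The promoter is where CIITA acts. It is recruited by the RFX complex on the X box and by NF-Y on the Y box, which carries the sequence CCAAT or, read on the other strand, ATTGG. RefSeq promoters (GRCm38.p6, 250 bases before each start) were matched for 7 of the 10 members. H2-Ab1, Cd74 and Ciita had no entry. The letters GNAAC followed by ATTGG, with 25 to 40 bases from start to start, were found on the gene's own strand in 5 of the 7: H2-Aa, H2-Eb1, H2-DMb1, H2-Oa and H2-Ob. Over 32851 promoters of that length, 1.15% held the pair on the gene's own strand, 2.25% held it on either strand, and 33.8% held ATTGG or CCAAT alone. The letters were chosen after these promoters had been read, so the count describes the members and is not a test. H2-DMb2 held ATTGG but not the GNAAC partner, in an entry at chr17:34144999-34145298. The deposited gene and that of GENCODE M21 both start before this entry, at 34143307. H2-DMa held the pair in none of its promoter entries, on either strand. Those entries end at 34122881 and 34125567, before the start of the deposited gene at 34135182. For H2-DMa and H2-DMb2 the bases directly before the deposited start were thus not searched. None of 7 MHC class I genes with an entry held the pair on either strand. Because the letters were chosen on class II promoters, this does not show that class I promoters lack X or Y boxes. Among the genes of the other lists described below, H2-Eb2, Icosl, Cd68 and Pi16 held the pair on either strand. The 3 windows that lie wholly before the gene in both annotations are shown, with the pair of boxes in capitals. They are H2-Aa at chr17:34287855-34287916 on the minus strand, H2-Eb1 at chr17:34305764-34305824 on the plus strand and H2-Ob at chr17:34238806-34238864 on the plus strand.
H2-Aa: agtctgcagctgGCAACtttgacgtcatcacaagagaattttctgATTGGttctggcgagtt
H2-Eb1: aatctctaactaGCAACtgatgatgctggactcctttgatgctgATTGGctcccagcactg
H2-Ob: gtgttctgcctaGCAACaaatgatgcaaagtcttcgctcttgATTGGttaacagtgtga
The distance from GNAAC to ATTGG was 33 bases in H2-Aa, 32 in H2-Eb1 and 30 in H2-Ob. These 3 genes encode a classical alpha chain, a classical beta chain and a chain of H2-DO, and the printed pair was thus found in genes at both ends of the range of expression described next.

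Of the classical chains, H2-Aa encodes the alpha chain of I-A, the main class II molecule of C57BL/6 mice. Its normalized expression was 350.1, 222.1 and 302.4 CPM (counts scaled to the library size after TMM normalization) in control replicates 1, 2 and 3, and 150.1, 70.87 and 46.88 CPM in cachexia replicates 1, 2 and 3. The highest cachectic mouse, replicate 1, was still below the lowest control. The log2 fold change was -1.71 (standard error 0.41, edgeR adjusted p = 0.0272), and it lost the call without control replicates 1, 2 or 3 or cachexia replicate 2, one at a time.

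H2-Ab1 encodes the beta chain that pairs with H2-Aa. Its expression was 318.0, 215.9 and 319.7 CPM in the controls and 140.0, 58.83 and 53.63 CPM in the cachectic mice. Again cachexia replicate 1 was the highest of its group, at more than 2 times the other 2 mice. The log2 fold change was -1.76 (standard error 0.38, edgeR adjusted p = 0.0201). The call was lost without control replicate 3 (adjusted p = 0.0724) and without cachexia replicate 2.

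H2-Eb1 encodes the beta chain of I-E. Mice of the C57BL/6 haplotype make no I-E alpha chain, and H2-Ea-ps, the gene listed for it, had 0 counts in all 6 libraries, so no transcript of a partner chain for H2-Eb1 was counted. H2-Eb1 had 290.1, 171.4 and 219.8 CPM in the controls and 135.1, 63.2 and 49.43 CPM in the cachectic mice. Its log2 fold change of -1.46 (standard error 0.38, edgeR adjusted p = 0.0359) was the smallest among the members. The call was lost without any 1 of the controls and without cachexia replicate 2 or 3. H2-Eb2, a further beta chain gene of the locus, was not tested, with 16, 10 and 5 counts in the controls and 2, 2 and 0 in the cachectic mice.

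Cd74 encodes the invariant chain and was the most abundant member. Its expression was 936.7, 647.2 and 782.1 CPM in the controls, or 788.6 ± 144.9 (SD, n = 3), and 350.2, 204.5 and 137.8 CPM in the cachectic mice, or 230.8 ± 108.6 (SD, n = 3). The control mice ranged over 1.45-fold and the cachectic mice over 2.54-fold. The log2 fold change was -1.77 (standard error 0.34, edgeR adjusted p = 0.0136), and the call was lost without control replicate 3 (adjusted p = 0.0516).

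H2-DMa and H2-DMb1 encode the 2 chains of H2-DM, the peptide editor. H2-DMa had 33.41, 29.52 and 32.01 CPM in the controls and 13.53, 6.019 and 6.687 CPM in the cachectic mice. H2-DMb1 had 28.75, 19.83 and 23.29 CPM in the controls and 11.02, 6.571 and 6.687 CPM in the cachectic mice. For both genes the cachectic replicates 2 and 3 were nearly level and replicate 1 stood above them. The log2 fold changes were -1.85 for H2-DMa (standard error 0.30, edgeR adjusted p = 0.00787) and -1.56 for H2-DMb1 (standard error 0.25, edgeR adjusted p = 0.00773). Both calls held in all 16 other settings tried, with log2 fold changes from -2.32 to -1.64 for H2-DMa and from -1.85 to -1.41 for H2-DMb1. In GENCODE M21, 360 exon bases of H2-DMa (10.4%) also belong to Brd2 on the opposite strand, and without strand in counting reads from there could not be told apart. The deposited span of H2-DMa starts later than that of GENCODE M21 and overlaps no other deposited gene.

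H2-DMb2 encodes an alternative beta chain of H2-DM. It had 5.118, 3.095 and 3.173 CPM in the controls and 1.166, 0.5527 and 1.967 CPM in the cachectic mice. It was the member in which cachexia replicate 3, not replicate 1, was the highest of its group. Its log2 fold change of -1.63 (standard error 0.49) did not pass the test (edgeR adjusted p = 0.0568), although the groups did not overlap. It passed without cachexia replicate 3, with DESeq2, with limma-voom and with limma on FPKM values. The H2-DMb1 and H2-DMb2 genes lie side by side, and the longest transcripts of the pair, of 1404 and 1483 bases, were 86% identical where aligned. Of all 50-base words in the transcripts, 22.7% of those of H2-DMb1 also occurred in H2-DMb2, so the reads of these genes can be split between them and each single value is uncertain.

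H2-Oa and H2-Ob encode the chains of H2-DO, the inhibitor of H2-DM that is known chiefly from B cells. H2-Ob had 3.612, 2.063 and 2.946 CPM in the controls and 1.341, 0.3685 and 0.7867 CPM in the cachectic mice. The log2 fold change was -1.78 (standard error 0.51, edgeR adjusted p = 0.0476), the weakest of the 8 calls. It was lost in 8 of 15 other settings, among them each fit without 1 control, without cachexia replicate 2 or without cachexia replicate 3. H2-Oa had 19, 10 and 7 counts in the controls and 6, 1 and 3 in the cachectic mice. These counts were lower in cachexia without overlap in CPM, but were too few for a test in the comparison with all 6 mice. Of the exon bases of H2-Oa, 22.8% also belong to BC051537 on the opposite strand, which had 0 counts in every library.

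Ciita encodes the master coactivator of the pathway. It had 11.39, 10.95 and 12.3 CPM in the controls, which lay within 1.12-fold of each other. The cachectic mice had 5.074, 3.071 and 1.311 CPM, a range of 3.87-fold. The log2 fold change of -1.87 (standard error 0.43, edgeR adjusted p = 0.0242) was the largest decrease among the tested members. The call was lost without control replicate 2 or 3 and without cachexia replicate 2. In GENCODE M21, 329 exon bases of Ciita (3.45%) also belong to Dexi on the opposite strand. Whether strand was used in counting is not given in the sources used here, so reads from this stretch may not have been told apart. Dexi had at most 306 counts in a library.

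**Figure D2:**
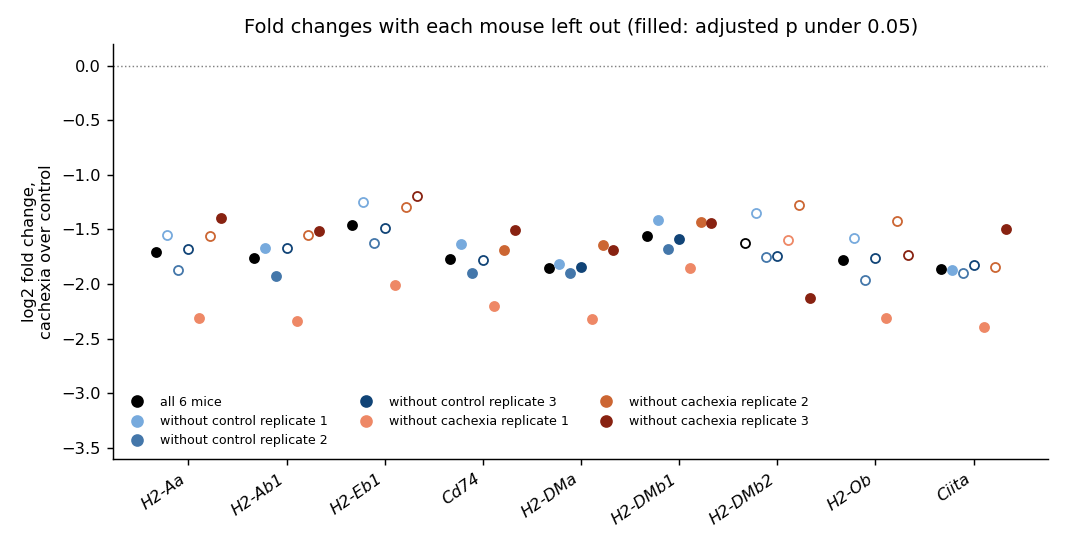
Log2 fold change of cachexia over control for the 9 tested members, from all 6 mice (black) and with each mouse left out in turn, filled where the edgeR adjusted p-value was under 0.05. All points lie below 0, and H2-DMa and H2-DMb1 are filled in every fit.

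The order of the mice was shared between members. Control replicate 1 was the highest control in 8 of the 10 genes and control replicate 3 in 2, where control replicate 1 was the highest control in 39% of all tested genes. Among the cachectic mice, replicate 1 was the highest in 9 members, against 29.2% of all tested genes. The lowest mouse of all was cachexia replicate 2 in 5 members and replicate 3 in 5. The members share these libraries, so their common order is a single observation rather than 10. Without cachexia replicate 1 the log2 fold changes of H2-Aa, H2-Ab1 and Ciita were -2.31, -2.34 and -2.39.

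Levels of different genes were compared as CPM per kilobase of the deposited gene length. In controls Cd74 led with 559.3 ± 102.7 (SD, n = 3), followed by H2-Eb1 with 191.8 ± 50.44, H2-Ab1 with 173.8 ± 36.32 and H2-Aa with 155.6 ± 34.5. The last 3 differed by less than the SD between mice from 1 to the next. H2-DMa (19.29 ± 1.203) and H2-DMb1 (16.13 ± 3.028) followed well below the classical chains, and their ranges over the control mice overlapped. H2-DMb2 (2.219 ± 0.6701), Ciita (1.211 ± 0.07212), H2-Ob (0.9115 ± 0.2465) and H2-Oa (0.4878 ± 0.2165) were the lowest. In the cachectic mice the order was the same, with the exception of H2-DMb1 (5.45 ± 1.709) and H2-DMa (5.329 ± 2.533), whose means differed by less than the SD. Cd74 there had 163.7 ± 77.02 CPM per kilobase (SD, n = 3).

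Summed, the 10 genes made up 0.198%, 0.132% and 0.17% of the normalized library in the controls and 0.0808%, 0.0414% and 0.0305% in the cachectic mice. The composition of this smaller sum was similar. Cd74 held between 48.8% and 51.6% of the summed CPM per kilobase in controls and between 45.5% and 51.6% in cachectic mice. H2-Aa held 13.3% to 14.2% and 12.1% to 14.7%, respectively. The share of H2-Eb1 was 16.3% to 18.3% in controls and 19% to 20.9% in cachectic mice.

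**Figure D3:**
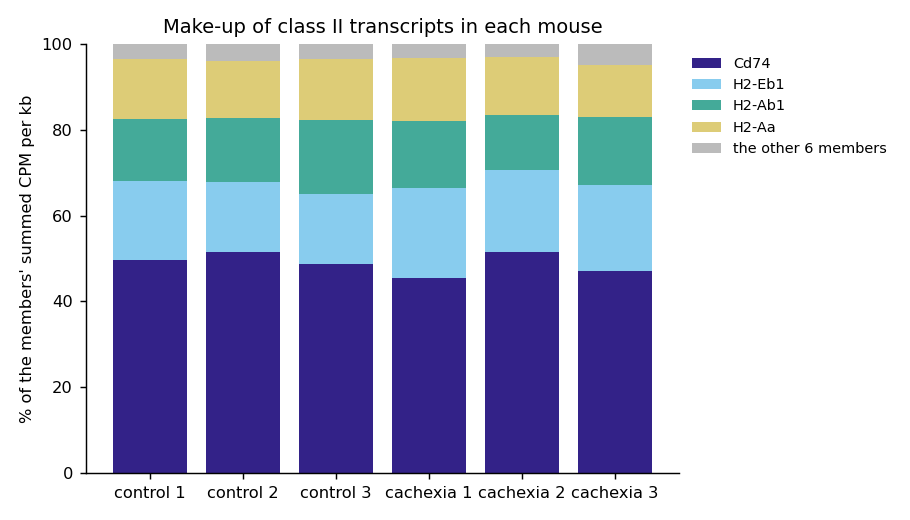
Share of each class II gene in the summed CPM per kilobase of the 10 members, as stacked bars that add up to 100% in each of the 6 mice. Cd74 takes 45.5% to 51.6% in every mouse, and the H2-Eb1 band is wider in the 3 cachectic mice.

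Of 7 ratios between members, H2-Eb1 over H2-Ab1 was the one without overlap between groups. Its log2 value was -0.13, -0.33 and -0.54 in the controls and -0.05, 0.1 and -0.12 in the cachectic mice. The difference of 0.31 had a two-sided exact permutation p = 0.1, which is the lowest that 3 against 3 mice allow, and an adjusted p of 0.7 over the 7 ratios. The log2 ratio of H2-Aa to H2-Ab1, the 2 chains of I-A, was 0.03 ± 0.11 in controls and 0.06 ± 0.23 in cachectic mice (SD, n = 3, exact permutation p = 0.9). Cd74 over H2-Ab1 differed by 0.02 and H2-Ab1 over Ciita by 0.20 (exact permutation p = 0.9 and 0.7), less than the SD in either group. H2-DMa over H2-DMb1 was lower by 0.36 in cachexia with overlapping groups (difference -0.36, exact permutation p = 0.2).

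Class I presentation, the companion pathway that serves CD8 T cells, was taken as a comparison. Of its 9 genes, 1 was upregulated and none downregulated, and the median log2 fold change was 0.17 with a range from -0.31 to 0.65. Psmb8, an immunoproteasome subunit, rose by 0.65 on the log2 scale (edgeR adjusted p = 0.0142), and this call was lost without control replicate 2 or 3, which left 0 class I calls. The heavy chain genes H2-K1 and H2-D1 had log2 fold changes of -0.02 and 0.20, and Nlrc5, the class I counterpart of Ciita, had -0.07. Against the mean log2 CPM of these 9 genes in the same mouse, all 10 class II members were lower in cachexia without overlap, by a median of 1.84 (median difference -1.84). Of all tested genes, 27.9% were.

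Most genes on a list of class II transcription factors (RFX, NF-Y, Creb1, Spi1, Irf8 and Irf4) did not pass the test. Among 10 genes of this list, 1 was upregulated and 1 downregulated, with a median log2 fold change of 0.30. An unadjusted edgeR p under 0.05 was reached by 6 of the 10. Irf4, a transcription factor of lymphocytes, dendritic cells and macrophages that is also known in adipocytes, rose from 12.8 ± 4.64 to 260.5 ± 100.7 CPM (SD, n = 3), a log2 fold change of 4.35 (edgeR adjusted p = 0.00134), called in all 16 other settings. Irf8, which drives dendritic cell development, fell from 27.61 ± 2.43 to 15.58 ± 2.25 CPM (log2 fold change -0.82, edgeR adjusted p = 0.0132), a call lost without control replicate 3. The RFX subunit genes Rfx5, Rfxap and Rfxank had log2 fold changes of 0.39, 0.30 and 0.45 with edgeR adjusted p-values of 0.198, 0.206 and 0.124.

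The interferon gamma route induces Ciita in part through IRF1. Of 7 tested genes, 2 were upregulated and 1 downregulated, with a median of 0.05. Irf1 had a log2 fold change of 0.71 and Ifngr1, a receptor chain, one of 0.74 (edgeR adjusted p = 0.0172 and 0.0248), while the other receptor chain, Ifngr2, had -0.57 (edgeR adjusted p = 0.0235). Ifng itself was not tested, with 13, 10 and 9 counts in the controls and 2, 0 and 2 in the cachectic mice. Without control replicate 3 none of this list was called, and without control replicate 2 there was 1 call.

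Among 9 genes of endosomal proteolysis, 1 was upregulated and none downregulated, with a median of -0.18. Ctsz, a lysosomal carboxypeptidase, rose from 128.1 to 259.0 CPM (log2 fold change 1.02, edgeR adjusted p = 0.00613) and was called in all 16 other settings. Ctss, the protease that completes the cutting of the invariant chain in most antigen-presenting cells, had a log2 fold change of -0.24 (edgeR adjusted p = 0.582). None of 3 genes of class II turnover at the surface was called by edgeR, with 2 at an unadjusted p under 0.05: March1, a ubiquitin ligase that sends class II to degradation, had -0.33, March8 0.38 and Cd83, which opposes March1, -1.36 (edgeR adjusted p = 0.396, 0.077 and 0.0619). Without the filter on low counts, with the replicate block, with limma-voom or without cachexia replicate 3, 1 of the 3 was called, and with DESeq2 2 were.

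Ligands that accompany antigen presentation were lower in part. Of 5 tested genes, 2 were downregulated, with a median of -1.03. Cd274, which encodes PD-L1, had 42.21 CPM in controls and 15.7 CPM in cachexia (log2 fold change -1.43, edgeR adjusted p = 0.00356) and was called in all 16 other settings. Cd40, the receptor through which T cells activate antigen-presenting cells, had 4.344 and 1.526 CPM (log2 fold change -1.50, edgeR adjusted p = 0.0199), a call lost without control replicate 2 or 3 or cachexia replicate 2. The costimulators Cd80 and Cd86 had -0.82 and -1.03 (edgeR adjusted p = 0.0942 and 0.0732), and Icosl had -0.04.

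**Figure D4:**
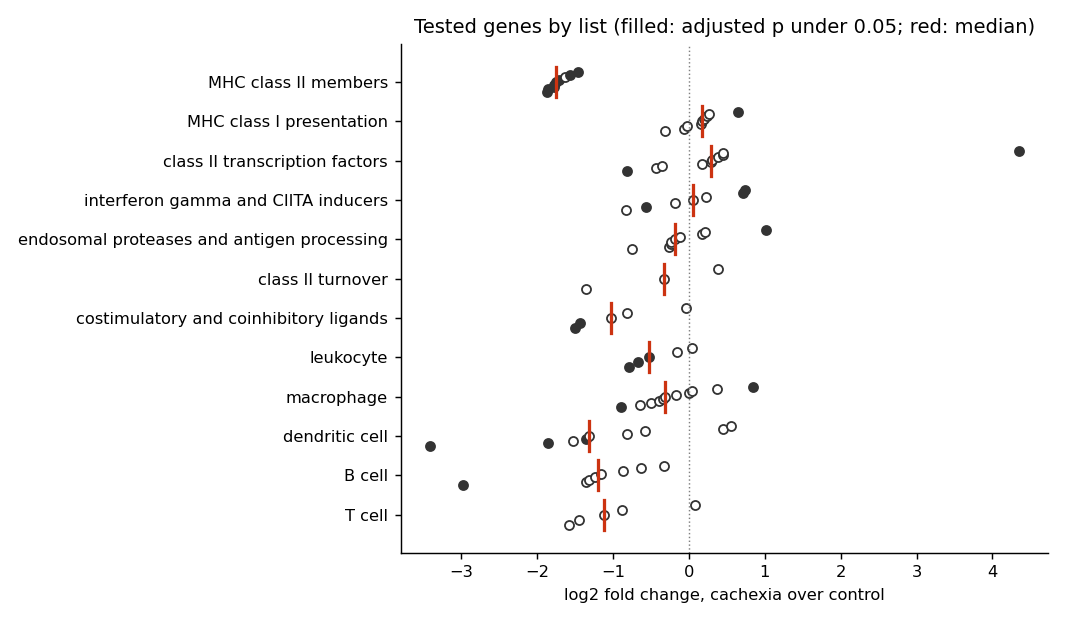
Log2 fold change of cachexia over control for each tested gene of the class II members, 6 related lists and 5 lists of leukocyte markers, filled where the edgeR adjusted p-value was under 0.05, with a red line at each list's median. The 9 class II members lie between -1.87 and -1.46, while class I genes lie between -0.31 and 0.65.

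Some markers of leukocytes, among them the cells that make class II, were called as well. Over all tested genes 8.63% were downregulated and 9% upregulated. In lists this short, the counts of calls among macrophage, B cell and T cell genes lay near these shares. Ptprc (CD45), found on all leukocytes, fell from 71.73 ± 12.6 to 41.55 ± 0.78 CPM (SD, n = 3, log2 fold change -0.79, edgeR adjusted p = 0.0136), a call lost without control replicate 2 or 3. The 5 leukocyte genes summed to 259 to 302 CPM in controls and 185 to 196 CPM in cachexia, with 3 of 5 downregulated and a median of -0.52. Cd53, the next of these genes, had -0.16 (edgeR adjusted p = 0.542). Among them Coro1a (-0.52, edgeR adjusted p = 0.0402) lost its call in 9 of 16 other settings, each fit without 1 mouse included, and Laptm5 (-0.67, edgeR adjusted p = 0.0139) without control replicate 3.

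Of 11 macrophage genes, Mertk was upregulated (0.85, edgeR adjusted p = 0.0320) and Mrc1 downregulated (-0.90, edgeR adjusted p = 0.0210), with a median of -0.32. Both calls were lost without control replicate 2 or 3, that of Mertk also without control replicate 1 and that of Mrc1 without cachexia replicate 2 or 3. The list summed to 949 to 1160 CPM in controls and 730 to 1150 CPM in cachexia, and Adgre1 and Csf1r had -0.39 and -0.34 (edgeR adjusted p = 0.398 and 0.494).

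Of 9 dendritic cell genes, 3 were downregulated with a median of -1.31. Xcr1, a chemokine receptor of cross-presenting dendritic cells, had 2.51, 1.89 and 1.64 CPM in controls and 0.233, 0.307 and 0 CPM in cachexia (edgeR adjusted p = 0.0177). Itgax had -1.86 and Batf3 -1.35 (edgeR adjusted p = 0.0378 and 0.0459), and each of these 3 calls was lost without control replicate 2, control replicate 3 or cachexia replicate 1. Itgax and Batf3 also lost theirs without control replicate 1 or cachexia replicate 3, and Batf3 without cachexia replicate 2. Flt3 had -1.53 (edgeR adjusted p = 0.0523), while Zbtb46 and Clec9a had 0.56 and 0.45. Because endothelial cells also use Zbtb46, the list's sum of 70.3 to 81.8 CPM in controls and 54.2 to 76.9 CPM in cachexia does not stand for dendritic cells alone.

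All 8 B cell genes had negative log2 fold changes, with a median of -1.20, and 1 passed the test, with 4 at an unadjusted edgeR p under 0.05. Ighm, the heavy chain of IgM, had 408, 517 and 473 CPM in controls and 125, 45.3 and 6.75 CPM in cachexia (log2 fold change -2.98, edgeR adjusted p = 0.0441), a call lost without any 1 control or cachexia replicate 2. In the cachectic group Ighm was highest in replicate 1 and lowest in replicate 3, as were Cd74, H2-Aa and Ciita. Cd79a was below 3 CPM in every mouse and had -0.33 (edgeR adjusted p = 0.719). The list summed to 422 to 529 CPM in controls and 11.4 to 130 CPM in cachexia, mostly Ighm. T cell genes summed to 6.48 to 13.8 and 4.46 to 7.55 CPM with 0 of 5 tested genes called by edgeR or DESeq2 and 1 at an unadjusted p under 0.05 (Cd3e had 0.08 and Cd3d -1.45). The part of any of these cell types in the class II result was not tested.

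Relative to Ptprc in the same mouse, the class II genes were lower by less. As log2 ratios of CPM with a pseudocount of 0.5, 9 of the 10 members were lower in cachexia, with a median difference of -0.935. The groups did not overlap for Cd74 (difference -1.09), Ciita (-1.10) and H2-DMa (-1.12), 3 of 10, against 2.99% of all tested genes. For Cd74 the log2 ratio was 4.01, 3.08 and 3.25 in the controls and 3.07, 2.26 and 1.74 in the cachectic mice. The two-sided exact permutation test gave p = 0.1 for each of these 3 genes and 0.333 after adjustment over the 10 members. H2-Aa (-1.08), H2-Ab1 (-1.11), H2-Eb1 (-0.79), H2-DMb1 (-0.77), H2-DMb2 (-0.60) and H2-Ob (-0.62) overlapped between groups, and H2-Oa had a difference of 0.07. The pseudocount shrinks the falls of H2-Oa, H2-Ob and H2-DMb2 and so shifts their differences upward. H2-Oa had means of 0.641 CPM in controls and 0.2027 CPM in cachexia, so the pseudocount can set the sign of its difference. Without control replicate 2 the number of members without overlap was 6 and without cachexia replicate 1 it was 8. With fewer mice to separate, these numbers are not directly comparable with the 3 from all mice.

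The denominator decided how far the class II genes stood apart. Against the mean log2 CPM of the 5 leukocyte genes, 8 of 10 members were lower without overlap (median difference -1.275), where 6.52% of tested genes were. Against the macrophage genes 8 of 10 were (median -1.495), with a background of 9.43%. Against the dendritic cell genes 5 of 10 were (median -0.815), with a background of 2.36%. Against the B cell genes none of 10 was (median -0.545), with a background of 0.956%, and 9 of the 10 had a negative difference. The exception was again H2-Oa (0.47), where the pseudocount can set the sign. Apart from Ighm, the B cell genes had at most 5.78 CPM in a mouse, near the pseudocount of 0.5. Their mean log2 level was 1.1, 1.71 and 0.52 in cachexia replicates 1, 2 and 3. The part of this spread in the overlap was not tested. The denominators themselves differed between groups by -0.77 for Ptprc, -0.42 for the leukocyte, -0.21 for the macrophage, -0.89 for the dendritic cell, -1.16 for the B cell and 0.14 for the class I genes on the log2 scale.

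**Figure D5:**
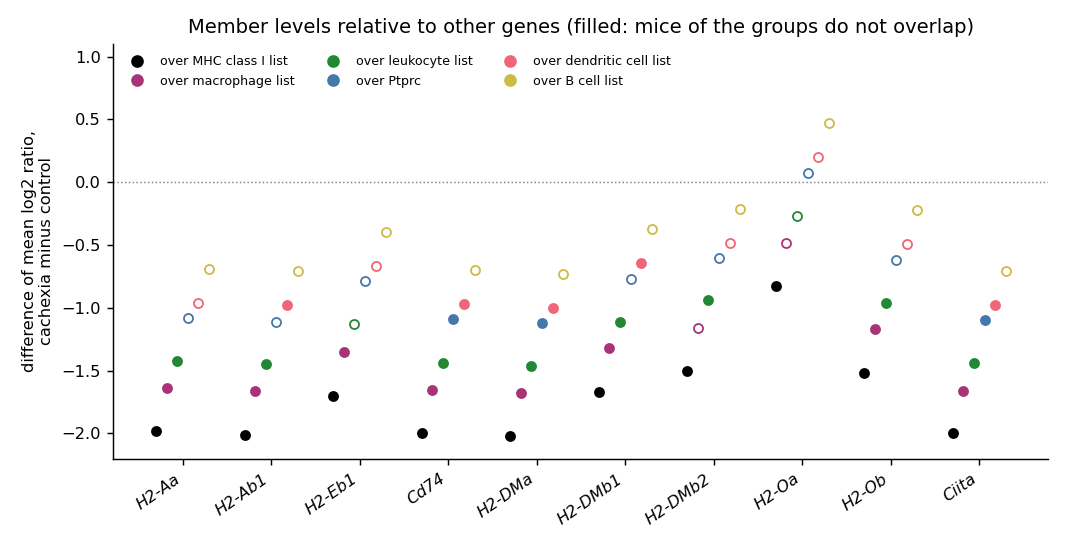
Difference in mean log2 ratio (cachexia minus control, pseudocount 0.5) of each class II gene over 6 denominators in the same mouse, filled where the 3 cachectic and 3 control mice do not overlap. The points rise from the class I list (10 of 10 filled) to the B cell list (0 of 10 filled).

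Outside the members, the 10 protein-coding genes whose centred log2 CPM over the 6 mice lay nearest to the mean profile of H2-Aa, H2-Ab1, H2-Eb1 and Cd74 were Clec4b1, Prokr1, Gins2, Angpt1, Cachd1, Kcp, Rtn4rl1, Igfbp5, Islr and Astn2. The root mean square difference was 0.12 for Clec4b1, a C-type lectin gene, and 0.217 for Astn2. The profile itself was 1.17, 0.55 and 0.96 in the controls and -0.06, -1.10 and -1.51 in the cachectic mice. Of the members outside the profile, H2-DMa had 0.225, Ciita 0.24 and H2-DMb1 0.263, so other genes followed the profile as closely as the pathway's own members did. H2-Ob (0.378) and H2-DMb2 (0.667) were farther away. This likeness is a description over 6 libraries that all genes share.

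Other tissue features moved in the same mice. All 6 tested neutrophil genes were upregulated, from a sum of 7.53 to 13.7 CPM to one of 197 to 604 CPM (S100a8 and S100a9 had log2 fold changes of 5.25 and 6.78), and all 5 erythroid genes were upregulated with a median of 2.5. Adipocyte genes summed to 14400 to 19100 CPM in controls and 12800 to 23700 CPM in cachexia, with Adipoq at 0.54 and Plin1 at -1.44 (edgeR adjusted p = 0.305 and 0.0570). Lep was downregulated and Cidec upregulated (-3.14 and 0.87, edgeR adjusted p = 0.0475 and 0.0322), calls lost without any 1 control or cachexia replicate 1 and, for Cidec, without any 1 mouse. Endothelial genes had a median of 0.74, with Pecam1 and Cdh5 upregulated (edgeR adjusted p = 0.0170 and 0.0426). Both calls were lost without control replicate 2 or 3, and that of Cdh5 also without control replicate 1, cachexia replicate 1 or cachexia replicate 2. Fat progenitor genes had a median of -0.44, with Pi16 down, Ly6a up and Pdgfra and Dpp4 not called. The call of Pi16 was lost without any 1 control or cachexia replicate 2 or 3, and that of Ly6a without control replicate 3. Mesothelial genes had a median of -0.42 (0 of 4 called by edgeR or DESeq2, 1 at an unadjusted p under 0.05). Epididymal epithelium genes summed to at most 3.71 CPM. The part of these tissue changes in the class II result was not tested. Library totals ran from 14928766 to 18855546 counts, every cachectic total below every control total. After thinning all mice to the smallest total 7 members were still called, where 1350 of 15556 tested genes were downregulated.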

How the data were processed

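Total RNA of eWAT from 3 control and 3 cachectic mice was sequenced as paired-end reads on an Illumina platform. The authors removed adapter, poly-N and low-quality reads, aligned with Hisat2 and deposited raw counts per gene from featureCounts 1.5.0-p3 (per the submitters' processing notes), not normalized. FPKM values deposited beside them were made from the count and the gene length and were used as an alternative. Their table of DESeq2 1.16.1 fold changes and p-values was not used. The processing notes name build mm9, but the coordinates in the files are those of GRCm38: all 10 members lie at their GENCODE M21 loci, where 3 have identical ends, and the promoters given are from RefSeq on GRCm38.p6. H2 genes lie on chromosome 17 from 34092340 to 34316199, Cd74 on chromosome 18 from 60803848 to 60812646 and Ciita on chromosome 16 from 10480059 to 10528418.

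Samples were grouped by their labels. The counts were fitted with edgeR 4.0.16 under R 4.3.3 (quasi-likelihood test, TMM, filterByExpr, no covariates) with Benjamini-Hochberg adjustment over 16003 of 29764 genes with counts and a threshold of 0.05, and the biological coefficient of variation was 0.264. Depth sets the precision of low members such as H2-Oa. Members, gene lists and tests were chosen with earlier results of these data known. Named genes were all members, list genes that passed the threshold, the first 2 genes of each marker list and the 10 nearest patterns, and genes named beyond these were chosen after their values were seen. A few list genes under this rule are left unreported. March1 and March8, stored as dates, were matched by identifier. Two-sided exact permutation tests were used for single values. Replicates are different mice, so p-values measure the spread between these mice. No pair of the 15 pairs of libraries was near-identical. Scripts were tested on simulated counts. Alternatives were other scalings (RLE, library totals), filters (none, at least 10 counts in every sample), each mouse left out, DESeq2 1.42.0, a replicate block, limma-voom and limma 3.58.1 on log2 FPKM (pseudocounts 1 and 0.1). Thinning and the B cell, dendritic cell and class I denominators were added after seeing the data.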

Additional observations from a re-analysis of the deposited data

How the results depend on the processing

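Each of the 9 tested members kept a negative log2 fold change in every setting in which it could be fitted. Leaving out 1 mouse moved the number of genes changed from 2821 to between 828 and 2339, the number of class II members changed from 8 to between 2 and 8, and the number of members lower than Ptprc without overlap from 3 to between 3 and 8. Against other denominators that number was 8 (leukocyte list), 8 (macrophage list), 0 (B cell list), 5 (dendritic cell list) and 10 (class I list). DESeq2, which gave more false calls than edgeR on simulated counts, called 9 members. Library totals, no filter, the filter of 10 counts and thinning called 7. Downregulated calls over all tested genes were 1929 of 16003 with DESeq2, 1151 of 16003 with library totals and 1379 of 29764 with no filter. They were 1225 of 13954 with the filter of 10 counts and 1350 of 15556 after thinning. The log2 fold changes of Ciita, H2-DMb2 and H2-Ob were smallest with limma on log2 FPKM and a pseudocount of 1, at -0.74, -0.915 and -0.594, because a pseudocount of 1 is large against their levels.

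The replicate block changed no member's call and gave 1881 genes changed. The numbers belong to different mice, and the same-numbered deviations correlated at -0.00314, -0.0113 and 0.00849, so they pair nothing. With the block, 1 inducer, 2 protease and 1 turnover gene were called, in place of 3, 1 and 0. DESeq2 called 4 transcription factors, 2 proteases and 2 turnover genes in place of 2, 1 and 0, and limma-voom and the absence of a filter each called 1 turnover gene. Without 1 mouse the calls ranged from 0 to 3 for inducers, 1 to 2 for transcription factors and for costimulatory ligands, 0 to 1 for class I genes and 0 to 1 for turnover genes. Of the named genes outside the members, 2 that were not called changed sign. Cd3e did so without control replicate 2, cachexia replicate 2 and cachexia replicate 3 (log2 fold changes of -0.087, -0.014 and -0.026, in a range up to 0.325 when 1 mouse is left out, against 0.08), and Dpp4 without cachexia replicate 2 (0.018, in a range from -0.277, against -0.12). The cause of these moves was not tested. Depth limits H2-Oa, H2-Eb2 and Ifng, whose libraries held at most 19 counts.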
